A study of Mus musculus with 9 samples.

Results

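The MYC, MAX and MXD network is a family of transcription factors that pair through a helix-loop-helix and leucine zipper and bind short DNA sites called E boxes, of which CACGTG is the typical form. Its members here are Myc, Mycn, Max, Mxd1, Mxd3, Mxd4, Mxi1, Mnt, Mga and Mlx, taken by gene symbol, 10 of the 24756 rows of a count table. All 10 symbols were found. Of these, 9 passed the filter on low counts, and Mycn did not.

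MAX is the shared partner of the network, and most of the other proteins reach DNA only when paired with it. MYC with MAX recruits acetyltransferases and raises the transcription of genes for growth, ribosome synthesis and nucleotide synthesis, while the MXD proteins, MXI1 and MNT with MAX recruit the SIN3 and histone deacetylase corepressor to the same sites. MGA with MAX belongs to a Polycomb repressor complex, and MLX runs a parallel branch that senses glucose through MondoA and ChREBP. In blood cells, MXD1 is known to replace MYC on MAX as myeloid precursors stop dividing and mature, which is why activators and antagonists are set side by side here.

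The cells were a mouse acute myeloid leukaemia line, MLL-AF9/iFLT3-ITD, made from foetal liver cells with a pair of retroviral vectors. Libraries from all groups share the leukaemic fusion MLL-AF9, which is expressed constitutively with a luciferase. FLT3-ITD, a receptor tyrosine kinase that is active without its ligand, is expressed with DsRED from a doxycycline-dependent promoter. There were 3 libraries from cells kept in 1 µg/mL doxycycline (ON), 3 from cells 24 h after washing out the drug (OFF24) and 3 from cells 48 h after (OFF48). Doxycycline and FLT3-ITD change together in this design and cannot be told apart. The labels do not tell whether the line is a single clone. The labels do not tell whether replicates were separate cultures, so p-values reflect the spread between these libraries, which may be only technical.

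Library totals ran from 1329296 to 4038456 counts, and 10215 genes were tested. Mouse Flt3 had 2 to 10 counts in each library, and 3' reads of a vector transcript fall outside the mouse gene, so it checks neither the transgene nor its loss. Of 19 myeloid maturation markers all had counts, and their summed level went from 15022 to 17672 CPM in ON to 18994 to 19699 in OFF24 and 57599 to 65519 in OFF48. Markers of other foetal liver cells were summed in the same way. The erythroid markers summed to 87.4 to 92.3 CPM in ON, 79.1 to 97.8 in OFF24 and 110 to 125 in OFF48. Hbb-bs, Alas2 and Epor were at 0 throughout (3 of 8). Nearly all of the erythroid sum was Tfrc, which is also listed below among genes that MYC activates. Mean Tfrc levels were 89.1 (ON), 89.7 (OFF24) and 117 CPM (OFF48), with a rise at 48 h (log2 0.40, edgeR adjusted p = 0.00652). The highest mean of any other erythroid marker was 0.709 CPM, for Klf1 at 48 h. The sum thus follows Tfrc and not the erythroid markers as a set. Lymphoid markers summed to 0.982 to 2.15 CPM in ON, 2.09 to 4.18 in OFF24 and 0.750 to 6.71 in OFF48. For megakaryocytes, mast cells and basophils the sum was 17.2 to 21.5 CPM in ON, 27.6 to 33.4 in OFF24 and 12 to 25.7 in OFF48, with Cpa3 at 0 throughout. Of these, Mcpt8 rose at 24 and 48 h (log2 1.55 and 0.82) and Gata2 fell at 48 h (log2 -1.76). Hepatocyte and stromal markers summed to 25.8 to 35.5 CPM in ON, 43.1 to 58.4 in OFF24 and 54.0 to 62.4 in OFF48, higher than ON without overlap, with Alb, Ttr and Cdh5 at 0 (3 of 9). Most of that sum was Pecam1, an adhesion molecule of endothelial and many blood cells, which rose at 24 and 48 h (log2 0.75 and 0.97, edgeR adjusted p of 0.000953 and 4.3e-05). The part of any marker in the members' values was not tested.

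Levels below are counts scaled to library size with TMM (CPM), with the SD over n = 3 libraries. The 3' library method gives about 1 read per transcript, so counts were not divided by transcript length, and levels of different genes are compared on this scale. Log2 fold changes carry a standard error (SE) and a 95% interval, and adjusted p-values are from edgeR's quasi-likelihood test with Benjamini-Hochberg (BH) adjustment over all 10215 genes, called at 0.05. OFF24 and OFF48 were each compared with the same ON libraries, so these comparisons are not independent of each other.

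Promoter sequences are shown for Max, Mxd4, Mlx and Mxi1, whose OFF24 libraries lay apart from ON without overlap and whose start regions hold a searched motif, since the network's own proteins bind E boxes. They come from the RefSeq promoter table (GRCm38.p6), run from 250 bases before the start to 20 after it, read 5′ to 3′ on the strand of the gene, and have the motif in capitals. Max lies at chr12:76962229-76962498 on the minus strand, Mxd4 at chr5:34187691-34187960 on the minus strand and Mlx at chr11:101087040-101087309 on the plus strand. For Mxi1, 30 bases around the motif in the third of its windows, chr19:53329453-53329482 on the plus strand, is shown.
Max: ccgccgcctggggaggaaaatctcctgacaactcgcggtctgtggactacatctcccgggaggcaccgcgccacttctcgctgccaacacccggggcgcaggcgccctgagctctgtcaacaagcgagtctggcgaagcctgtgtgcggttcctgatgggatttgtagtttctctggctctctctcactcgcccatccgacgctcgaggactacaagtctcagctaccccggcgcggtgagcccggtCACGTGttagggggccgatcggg
Mxd4: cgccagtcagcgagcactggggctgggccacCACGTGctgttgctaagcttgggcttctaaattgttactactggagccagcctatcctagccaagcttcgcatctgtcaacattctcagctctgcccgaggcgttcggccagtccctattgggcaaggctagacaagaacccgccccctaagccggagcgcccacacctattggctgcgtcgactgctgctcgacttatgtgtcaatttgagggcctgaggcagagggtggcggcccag
Mlx: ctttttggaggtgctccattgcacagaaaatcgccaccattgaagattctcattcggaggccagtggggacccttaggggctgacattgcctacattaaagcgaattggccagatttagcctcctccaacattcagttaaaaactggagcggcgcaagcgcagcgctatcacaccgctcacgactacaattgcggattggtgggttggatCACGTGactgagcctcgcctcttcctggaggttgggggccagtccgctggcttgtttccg
Mxi1: cgcgcggagaaGTAAACAaaccgcgcgcgg

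The capitals mark the E box CACGTG in Max, Mxd4 and Mlx, starting at base -3 in Max, -219 in Mxd4 and -40 in Mlx relative to the start. In Mxi1 they mark GTAAACA, a forkhead (FOXO) motif, at -231. RefSeq windows of 300 bases (250 before to 50 after the start) were matched for all members but Myc, 11 windows in all, and searched on both strands. The E box CACGTG was also in the Mnt window at -123. The variant E box CACGCG was in the Mga window at -21. The E2F motifs TTTGGCG (at -183 and -168) and TTTCGCG (at -178, on the other strand and next to the first) were in the Mycn window. Mxd1, Mxd3 and the first and second windows of Mxi1 held none of the motifs, and the STAT motif TTCNNNGAA was in none of these 11 windows. The Myc promoter was not searched. Among all 32851 promoter windows, 7.15% held CACGTG, 9.27% CACGCG, 3.65% GTAAACA, 8.3% TTCNNNGAA, 1.56% TTTGGCG and 0.849% TTTCGCG. These matches are letters in a window and no measure of binding.

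At 24 h, 2 of the 9 tested members rose (Mxd4 and Mxi1) and 2 fell (Myc and Mlx). Over all tested genes 35.3% were called in this comparison, 17.8% as risen and 17.4% as fallen. The libraries did not overlap for 6 members (Mxd3, Mxd4 and Mxi1 higher, Myc, Max and Mlx lower), beside 49.0% of all tested genes. At 48 h, 4 members rose (Mxd1, Mxd3, Mxd4 and Mxi1) and only Myc fell, where 47.4% of all tested genes were called, 23.4% as risen and 23.9% as fallen. No overlap was seen for those same 5 members, beside 52.5% of all genes. Between 24 and 48 h, 4 members rose (Mxd1, Mxd4, Mxi1 and Mlx) and 0 fell at an adjusted p under 0.05 by edgeR, where 21.1% of all genes were called, 9.99% as risen and 11.2% as fallen. In that comparison the libraries of 6 members lay higher at 48 h without overlap, beside 38.0% of all genes in either direction. The counts of members called against ON are near the background, so the number by itself says nothing about the network; what follows is which members moved and by how much.

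**Figure D1:**
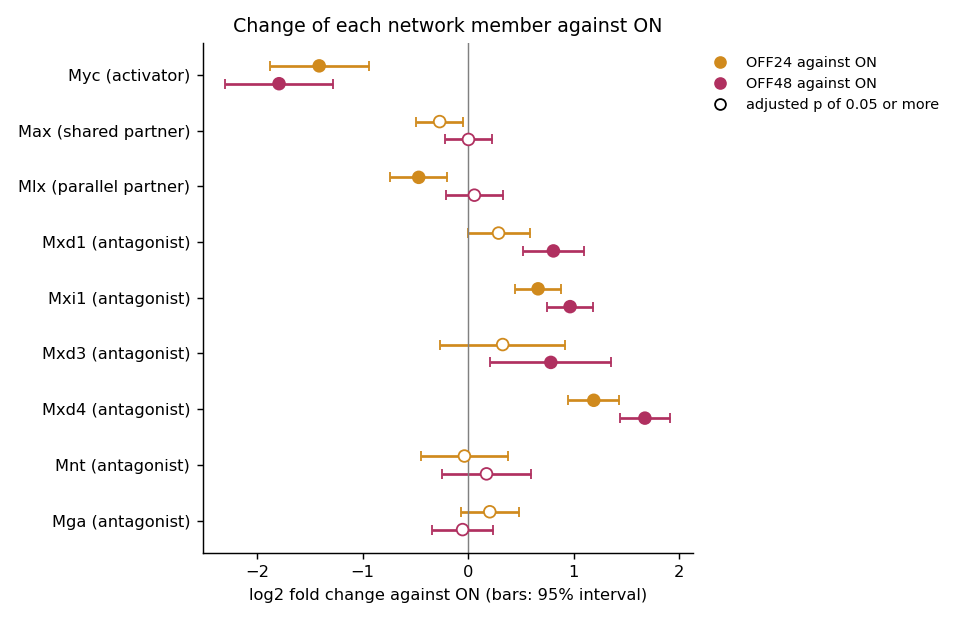
Log2 fold change of each tested member in OFF24 (orange) and OFF48 (red) against ON, on the horizontal axis, with bars for the 95% interval and filled points for an adjusted p under 0.05. Myc lies furthest to the left (-1.41 and -1.79) and Mxd4 furthest to the right (1.19 and 1.68), while Mnt and Mga lie near 0 at both times.

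Myc, the activator (chromosome 15, 61985391 to 61990374, plus strand, mm10), had 23.0, 26.3 and 19.0 CPM in the ON libraries, 7.94, 9.73 and 8.04 in OFF24 and 4.03, 8.25 and 8.16 in OFF48. All ON libraries lay above all libraries without the drug, while OFF24 and OFF48 overlapped. These levels rest on few reads, from 53 to 107 counts per library in ON, 19 to 31 in OFF24 and 11 to 28 in OFF48. Myc was 2.66-fold lower at 24 h (95% interval of the log2 fold change -1.88 to -0.94, edgeR adjusted p = 7.8e-05) and 3.46-fold lower at 48 h (-2.30 to -1.28, edgeR adjusted p = 6.79e-06). Most of this fall was present by 24 h: the log2 fold change from 24 to 48 h was -0.38 ± 0.29 (SE), with an interval of -0.99 to 0.23 and an edgeR adjusted p of 0.384. In this bulk measurement, fewer cells with Myc RNA and less Myc RNA per cell cannot be told apart.

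Mycn, the neural paralogue of Myc (chromosome 12, 12936093 to 12941914, minus strand), had 1 count in ON replicate 2, 1 in ON replicate 3 and 0 in each of the other libraries. A count of 0 allows up to 3 counts, which is 0.765 CPM in the deepest library without a Mycn read (ON replicate 1) and 2.25 in the shallowest, for counting error only. Myc thus gave nearly all activator reads in every library.

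Max, the shared partner (chromosome 12, 76937269 to 76962201, minus strand), had 87.5, 87.7 and 83.7 CPM in ON, 74.4, 69.1 and 71.8 in OFF24 and 93.3, 81.7 and 83.7 in OFF48. The OFF24 libraries were lower than all others without overlap, and ON and OFF48 overlapped. The difference at 24 h did not pass the threshold (log2 -0.27 ± 0.11, SE, 95% interval -0.49 to -0.05, edgeR adjusted p = 0.056), and at 48 h the value was 0.0038 ± 0.11 with an interval of -0.22 to 0.23. The 24 h call was close to the threshold: it passed without any of the OFF48 libraries (edgeR adjusted p of 0.0391 to 0.0444), with library size scaling (0.0422), with RLE scaling (0.0459) and with the compared groups alone (0.0422). The fitted fall of Myc lies outside these intervals of Max at both times.

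**Figure D2:**
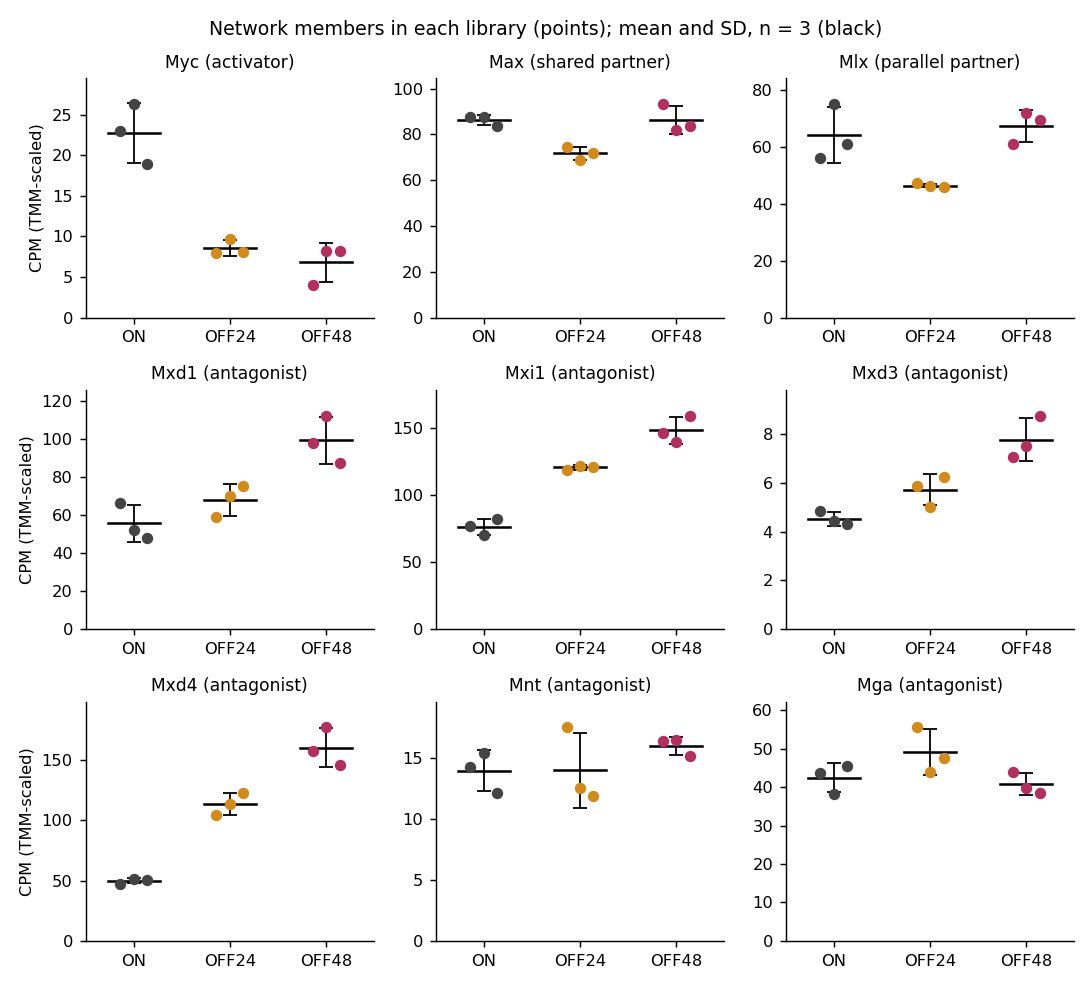
Level of each tested member in CPM (vertical axis, from 0, with its own scale per gene) in every ON (grey), OFF24 (orange) and OFF48 (red) library, with the mean and SD of 3 libraries in black. Mxd4 and Mxi1 step up at each time without overlap, Myc drops by 24 h, and Max and Mlx are lowest in OFF24.

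Of the antagonists, Mxd4 moved most. Mxd4 (chromosome 5, 34173883 to 34187720, minus strand), which represses with MAX through SIN3, had 47.4, 51.6 and 50.1 CPM in ON, 105, 113 and 122 in OFF24 and 158, 177 and 145 in OFF48. The 3 groups did not overlap and rose in order. Mxd4 was 2.28-fold higher than ON at 24 h (edgeR adjusted p = 2.63e-07, log2 1.19 ± 0.11, SE) and 3.20-fold higher at 48 h (log2 1.68 ± 0.11, edgeR adjusted p = 9.07e-10). The further rise from 24 to 48 h was log2 0.48 ± 0.11 (edgeR adjusted p = 0.00329).

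Mxi1, also called MXD2 (chromosome 19, 53310518 to 53375810, plus strand), had the highest mean level of the antagonists over the 9 libraries, 115 CPM. It had 76.8, 70.3 and 81.9 CPM in ON, 119, 122 and 121 in OFF24 and 146, 139 and 159 in OFF48. Its groups did not overlap either, and the SD over the OFF24 libraries was 1.63 CPM. Mxi1 was 1.58-fold higher at 24 h (edgeR adjusted p = 8.08e-05, log2 0.66 ± 0.11, SE) and 1.95-fold higher at 48 h (log2 0.97 ± 0.11, edgeR adjusted p = 4.22e-07). From 24 to 48 h it rose by log2 0.30 ± 0.10 (edgeR adjusted p = 0.0433). That last call was lost under 11 of 18 alternatives, among them DESeq2 (adjusted p = 0.0761) and the omission of any of the OFF24 libraries (edgeR adjusted p of 0.0859 to 0.0992).

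Mxd1 (chromosome 6, 86647042 to 86669161, minus strand), the antagonist known for its rise in maturing granulocytes, had 66.6, 52.3 and 48.3 CPM in ON, 58.9, 70.0 and 75.4 in OFF24 and 98.3, 112 and 87.5 in OFF48. ON and OFF24 overlapped, and OFF48 was above both. The 24 h value was log2 0.29 ± 0.14 (SE, edgeR adjusted p = 0.117), and it passed the threshold only without ON replicate 1 (log2 0.42, edgeR adjusted p = 0.0439). Mxd1 was 1.75-fold higher at 48 h than in ON (log2 0.81 ± 0.14, edgeR adjusted p = 9.03e-05). It rose by log2 0.52 ± 0.14 from 24 to 48 h (edgeR adjusted p = 0.011, or 0.0547 without OFF24 replicate 1). Myeloid maturation markers moved over the same times: of 19 tested, 12 rose and 0 fell at 24 h, 17 rose and 0 fell at 48 h, and 13 rose and 2 fell between the times, by the same edgeR threshold. Of all tested genes, 17.8%, 23.4% and 9.99% rose in these comparisons, in that order, and 17.4%, 23.9% and 11.2% fell. The summed level of the markers was mostly S100a8 and S100a9, which went from 9671 and 3385 CPM in ON to 9973 and 3297 in OFF24 and 32588 and 12574 in OFF48. Mpo and Lyz2 moved more by 24 h (log2 2.31 and 2.74) than between the times (1.15 and 1.69). Camp moved less by 24 h (log2 1.70) than between the times (2.97). The part of these markers in the levels of Mxd1 and the other antagonists was not tested.

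Mxd3, an antagonist usually tied to dividing cells (chromosome 13, 55325168 to 55329823, minus strand), was the lowest of the tested members in ON and OFF24, with 4.85, 4.42 and 4.29 CPM in ON, 5.85, 5.02 and 6.26 in OFF24 and 7.05, 7.50 and 8.75 in OFF48. The libraries of the 3 groups did not overlap, but the steps were small beside the error of so few reads. At 24 h the log2 fold change was 0.33 ± 0.28 (SE, edgeR adjusted p = 0.386). At 48 h Mxd3 was 1.72-fold higher than ON (log2 0.78 ± 0.27, edgeR adjusted p = 0.024). This call was lost with DESeq2 (adjusted p = 0.108), with no filter on low counts (edgeR adjusted p = 0.0684) and without ON replicate 2 (0.06), ON replicate 3 (0.0548) or OFF48 replicate 3 (0.121). The 3' end of Mxd3 also shares 105 exon bases with Prelid1 on the opposite strand, which had 9068 counts in all. The sources used here do not give the strand setting of the counting, and the Mxd3 level is uncertain for that reason. Prelid1 itself, looked up after the values were seen, went from 355 CPM in ON to 430 in OFF24 and 176 in OFF48, and so fell at 48 h (log2 -1.0 ± 0.12, edgeR adjusted p = 2.18e-06) where Mxd3 was higher.

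Mnt, a broadly expressed antagonist (chromosome 11, 74830920 to 74845725, plus strand), had 14.3, 15.5 and 12.2 CPM in ON, 17.6, 12.6 and 11.9 in OFF24 and 16.4, 16.5 and 15.2 in OFF48. All 3 groups overlapped. Its log2 fold change was -0.035 (95% interval -0.45 to 0.38) at 24 h and 0.17 (-0.24 to 0.59) at 48 h, with edgeR adjusted p of 0.909 and 0.498. Mga, which joins MAX to a Polycomb complex (chromosome 2, 119897228 to 119969581, plus strand), had 43.6, 38.3 and 45.4 CPM in ON, 55.6, 43.9 and 47.7 in OFF24 and 43.9, 39.7 and 38.5 in OFF48. The ON libraries of Mga overlapped with both other groups. Its log2 fold change was 0.21 (-0.07 to 0.48) at 24 h and -0.052 (-0.34 to 0.23) at 48 h, with edgeR adjusted p of 0.234 and 0.785. At 48 h the intervals of both lie below the fitted values of Mxd1, Mxd3, Mxd4 and Mxi1, though the differences between genes were not tested.

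Mlx, the partner of the parallel branch (chromosome 11, 101087277 to 101092207, plus strand), had 56.1, 75.2 and 61.2 CPM in ON, 47.2, 46.5 and 45.9 in OFF24 and 61.1, 72.0 and 69.4 in OFF48. The OFF24 libraries were close together and below all others, while ON and OFF48 overlapped. Mlx fell 1.38-fold at 24 h (edgeR adjusted p = 0.00861, log2 -0.47 ± 0.13, SE) and rose again by log2 0.53 ± 0.13 from 24 to 48 h (edgeR adjusted p = 0.00773), which left it at log2 0.060 ± 0.13 against ON. Among the tested members, Max and Mlx were the ones whose OFF24 libraries lay below those of both other groups. The last 400 bases of Mlx share 385 exon bases with Psmc3ip on the opposite strand, so with an unknown strand setting some Mlx counts may be reads of Psmc3ip. Psmc3ip, also looked up after the values were seen, had 357 counts in all against 1628 for Mlx and went from 13.1 to 9.32 to 15.8 CPM. Its log2 fold change was -0.48 at 24 h (edgeR adjusted p = 0.118) and 0.83 from 24 to 48 h (edgeR adjusted p = 0.0153), the same directions as Mlx.

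In Mxd4, the antisense gene Gm42846 covers 353 of the last 400 bases and was not analysed here, so the Mxd4 level carries the same uncertainty. For Mxi1 the opposite-strand gene Gm10197 shares 194 exon bases, none of them in the last 400 of the gene. Mxi1 transcripts have 7 distinct 3' ends, however, and the last 400 bases of at least 1 of them match Gm10197. The Mxi1 level is therefore uncertain in the same way. The other 6 members share no exon base with another annotated gene.

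In CPM, the order of the mean levels in ON was Max (86.3 ± 2.23), Mxi1 (76.3 ± 5.86), Mlx (64.2 ± 9.87), Mxd1 (55.7 ± 9.6), Mxd4 (49.7 ± 2.10), Mga (42.5 ± 3.70), Myc (22.7 ± 3.66), Mnt (14 ± 1.68), Mxd3 (4.52 ± 0.289) and Mycn (0.201 ± 0.183). Libraries of Mxi1 overlapped with those of Mlx, Mlx with Mxd1 and Mxd1 with Mxd4, and the other neighbours in this order stood clear of each other, Mycn and its 2 reads included. At 24 h the order was Mxi1 (121 ± 1.63), Mxd4 (113 ± 8.81), Max (71.8 ± 2.68), Mxd1 (68.1 ± 8.37), Mga (49.1 ± 5.96), Mlx (46.5 ± 0.687), Mnt (14 ± 3.09), Myc (8.57 ± 1.00), Mxd3 (5.71 ± 0.629) and Mycn at 0. Here Mxi1 overlapped with Mxd4, Max with Mxd1 and Mga with Mlx. At 48 h the order was Mxd4 (160 ± 15.9), Mxi1 (148 ± 10.1), Mxd1 (99.4 ± 12.5), Max (86.2 ± 6.17), Mlx (67.5 ± 5.71), Mga (40.7 ± 2.86), Mnt (16 ± 0.755), Mxd3 (7.76 ± 0.881), Myc (6.81 ± 2.41) and Mycn at 0. Mxd4 and Mxi1 overlapped at the top, Mxd1 overlapped with Max, and Myc overlapped with Mxd3 at the bottom. Mxd4 thus moved from below Max and Mxi1 to above Max, and Myc from above Mnt to below it, in all 3 libraries of each group.

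The antagonists together were compared with the activators within each library, which needs no scaling between libraries. There were 9.05, 11.4 and 7.98 Myc and Mycn counts per 100 antagonist counts in ON, 2.20, 2.65 and 2.09 in OFF24, and 0.858, 1.67 and 1.80 in OFF48. The 3 groups did not overlap. On the log2 scale the ratio was -3.41 ± 0.26 (SD, n = 3) in ON, -5.44 ± 0.18 in OFF24 and -6.19 ± 0.59 in OFF48, a change of -2.03 at 24 h and of -2.77 at 48 h. No test is given, because members chosen with results known make up the ratio. OFF48 replicate 1 had the lowest ratio, and the step from 24 to 48 h, -0.75, was -0.41 without it. Both sides of the ratio moved: summed antagonist levels went from 243 ± 10.6 CPM in ON to 371 ± 12.2 in OFF24 and 472 ± 19.2 in OFF48, while Myc went from 22.7 to 8.57 to 6.81 CPM.

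**Figure D3:**
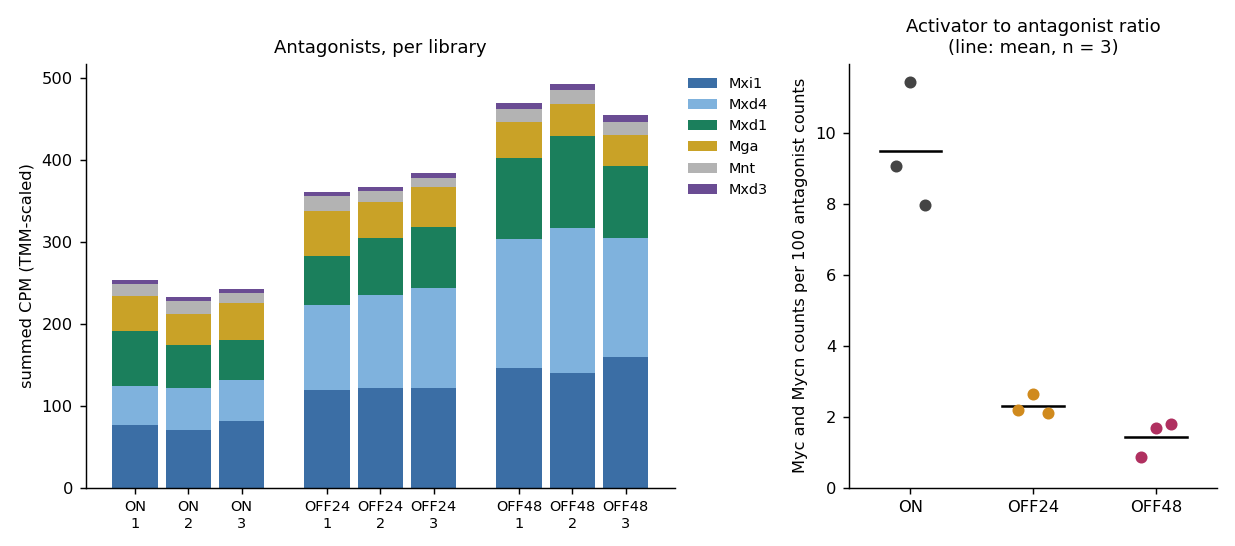
Left, summed CPM of the 6 antagonists in each library, stacked by gene; right, Myc and Mycn counts per 100 antagonist counts in each library, with lines at the mean of 3 libraries. The bars grow from 232 to 254 CPM in ON to 455 to 493 in OFF48, mostly through Mxd4, Mxi1 and Mxd1, and the ratio drops without overlap between groups.

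The antagonist pool also changed in make-up. Mxd4 gave 20.5% ± 1.75 (SD, n = 3) of antagonist counts in ON, 30.5% ± 1.45 in OFF24 and 33.8% ± 1.97 in OFF48. The share of Mga went the other way, from 17.5% ± 1.16 to 13.3% ± 1.86 and 8.63% ± 0.664. Its own level did not pass the threshold at either time (log2 0.21 and -0.052 against ON). Mxi1 gave 31.4%, 32.5% and 31.5% in the 3 groups, which overlapped. Mxd1 gave 22.9% ± 3.18 in ON, 18.3% ± 1.76 in OFF24, below ON without overlap, and 21.0% ± 1.79 in OFF48. The mean level of Mxd1 was 55.7 CPM in ON and 68.1 in OFF24, so its lower share at 24 h was not a lower level. Mnt and Mxd3 made up at most 6.66% and 1.92% in any library.

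Seen from the shared partner, there were 26.3 ± 3.66 (SD, n = 3) Myc counts per 100 Max counts in ON, 12 ± 1.84 in OFF24 and 8.05 ± 3.24 in OFF48. There were 32.5 ± 1.19 Max counts per 100 counts of activators and antagonists in ON, 18.9 ± 1.06 in OFF24 and 18.0 ± 1.69 in OFF48. Max reads were thus fewer relative to those of its partners in both groups without the drug than in ON, without overlap, and the OFF24 and OFF48 values overlapped. These are ratios of reads, not of proteins, and they carry no test.

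Among the genes that MYC is known to activate, 26 of 29 tested fell and 0 rose at 24 h, and 28 fell and 1 rose at 48 h, by edgeR at an adjusted p of 0.05. The shares over all tested genes were 17.4% fallen and 17.8% risen at 24 h, and 23.9% and 23.4% at 48 h. The median log2 fold change of the list was -1.24 at 24 h and -1.56 at 48 h, beside 0.03 and 0.01 over all tested genes. Srm, spermidine synthase, fell from 85.8 CPM to 15.4 at 24 h (log2 -2.46 ± 0.17, SE) and 12.2 at 48 h (-2.90 ± 0.19), and Nop56, a nucleolar protein that guides rRNA methylation, fell too (log2 -1.67 and -2.16). Npm1 and Ldha passed only at 48 h. Npm1, the nucleolar chaperone, had a log2 value of -0.06 ± 0.10 at 24 h (edgeR adjusted p = 0.637) and fell by 1.57 at 48 h (edgeR adjusted p = 2.91e-10). Ldha, lactate dehydrogenase, had 0.09 ± 0.10 at 24 h (edgeR adjusted p = 0.487) and fell by 2.02 at 48 h (edgeR adjusted p = 1.93e-11). The gene that rose was Tfrc, the transferrin receptor. Between the times 8 fell and 2 rose, beside 11.2% and 9.99% of all tested genes. Without OFF24 replicate 2 or without OFF48 replicate 3, 5 fell.

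Of 11 tested genes that MYC is known to repress, 7 rose and 1 fell at 24 h and 6 rose and 3 fell at 48 h, with list medians of log2 0.63 and 0.48. Over all tested genes, 17.8% rose and 17.4% fell at 24 h, and 23.4% rose and 23.9% fell at 48 h. Cebpa and Cebpd, which encode C/EBP factors of myeloid differentiation, rose by log2 0.97 ± 0.12 and 0.57 ± 0.11 at 24 h and by 0.76 ± 0.13 and 0.88 ± 0.11 at 48 h. Cdkn1a, the cell cycle inhibitor p21, fell at both times (log2 -1.13 ± 0.15 and -2.13 ± 0.17), and Ndrg2 had -0.49 ± 0.29 at 24 h (edgeR adjusted p = 0.191, or 0.0322 without ON replicate 2) and fell by 2.70 at 48 h. Myc-repressed genes therefore did not all move the same way.

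**Figure D4:**
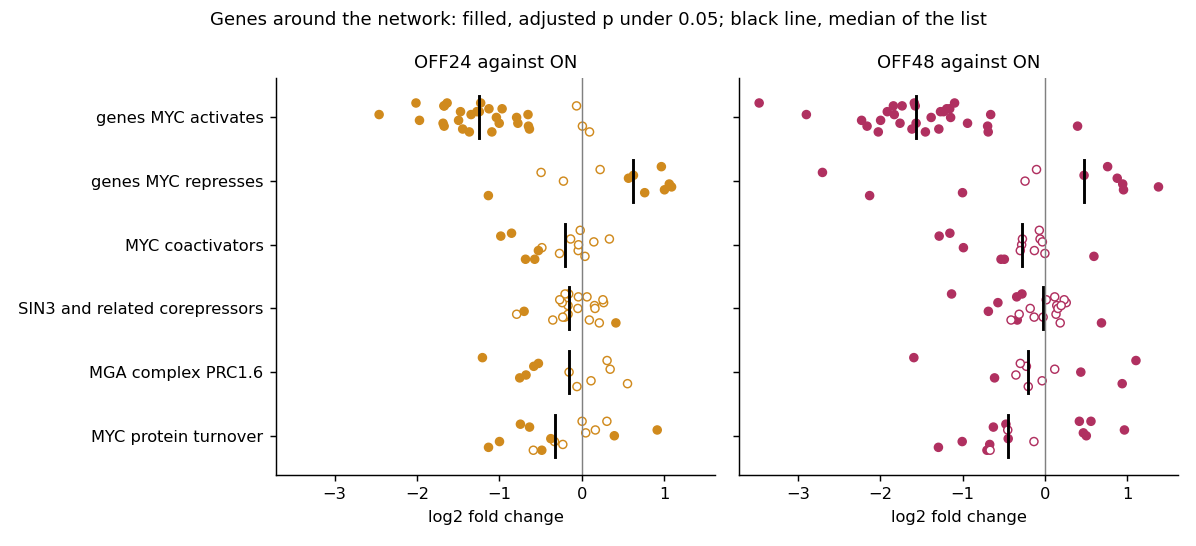
Log2 fold change of each tested gene (points; filled where the adjusted p was under 0.05) in 6 lists of genes around the network, against ON at 24 h (left, orange) and 48 h (right, red), with black lines at the list medians. Genes that MYC activates lie left of 0 with medians of -1.24 and -1.56, while the cofactor lists straddle 0.

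Of 14 tested MYC coactivators, 5 fell and 0 rose at 24 h and 5 fell and 1 rose at 48 h (medians -0.20 and -0.28). Over all tested genes, 17.4% fell and 17.8% rose at 24 h, and 23.9% fell and 23.4% rose at 48 h. Ruvbl1, an ATPase of the TIP60 and INO80 complexes, fell at both times (log2 -0.98 and -1.28), as did Kat2a, the acetyltransferase GCN5 (log2 -0.85 and -1.15). Actl6a, an actin-related subunit of the same kind of complex, fell as well (log2 -0.68 and -0.49). Ruvbl2, the partner of Ruvbl1, had -0.48 ± 0.25 at 24 h (edgeR adjusted p = 0.141, or 0.0194 without ON replicate 2) and fell by 0.99 at 48 h.

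For the SIN3 and related corepressors, through which MXD proteins and MNT act, 21 subunits were tested. At 24 h, 1 rose and 1 fell. At 48 h, 1 rose and 6 fell, or 3 fell without OFF48 replicate 1. Over all tested genes, 17.8% rose and 17.4% fell at 24 h, and 23.4% rose and 23.9% fell at 48 h. The median log2 fold changes of the list were -0.16 and -0.02. Arid4a, a SIN3 subunit, rose at both times (0.41 ± 0.11 and 0.69 ± 0.12). Rbbp7 (-0.57 ± 0.10) and Sin3b (-0.34 ± 0.10) fell at 48 h, with values of -0.24 and -0.04 at 24 h that did not pass. The 24 h call of Arid4a was lost without ON replicate 1 (edgeR adjusted p = 0.0699), and Rbbp7 passed at 24 h without ON replicate 2 or any of the OFF48 libraries (0.0368 to 0.0472), with RLE or library size scaling (0.0438 and 0.0405) and with the compared groups alone (0.0387).

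Among 11 tested subunits of the Polycomb complex that contains MGA, 5 fell and 0 rose at 24 h, and 2 fell and 3 rose at 48 h. That 24 h count of 5 was 3 without ON replicate 1 and 2 without ON replicate 3. Over all tested genes, 17.4% fell and 17.8% rose at 24 h, and 23.9% fell and 23.4% rose at 48 h. Rybp rose at 48 h (log2 1.11 ± 0.15, edgeR adjusted p = 4.71e-06), as did Tfdp2 (0.94 ± 0.22) and Tfdp1 (0.44 ± 0.14), the dimerisation partners of E2F factors. Pcgf6, which defines the complex, fell at both times (log2 -1.21 and -1.59) from a low level of 5.99 CPM in ON, with edgeR adjusted p of 0.0369 and 0.0104. The Tfdp1 call was lost without ON replicate 3 or OFF48 replicate 3 (edgeR adjusted p of 0.0961 and 0.0715). The 24 h Pcgf6 call was lost with DESeq2 and without ON replicate 1, ON replicate 3, OFF24 replicate 1 or OFF24 replicate 2 (edgeR adjusted p of 0.079 to 0.184), and the 48 h call without OFF48 replicate 1 (0.0777) and on the authors' log2 values.

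Of 15 tested genes that act on MYC protein stability, 2 rose and 6 fell at 24 h. At 48 h, 5 rose and 7 fell, with 4 falling without OFF48 replicate 3. Over all tested genes, 17.8% rose and 17.4% fell at 24 h, and 23.4% rose and 23.9% fell at 48 h. The count of 2 that rose at 24 h dropped to 1 or 0 without any of the ON or OFF24 libraries. Set, a phosphatase inhibitor, fell at both times (log2 -1.13 and -1.29). Aurka, the kinase Aurora A (log2 -0.49 and -0.70), and Usp36, a nucleolar deubiquitinase (log2 -1.0 and -1.0), did so too. Huwe1, a ubiquitin ligase, had -0.23 at 24 h (edgeR adjusted p = 0.0837) and fell by 0.67 at 48 h. MYC protein was not measured.

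Of 5 tested members of the extended network, 0 passed at 24 h by edgeR, beside 35.3% of all genes. At 48 h, beside 47.4%, Mycbp2 rose (0.43 ± 0.13) and Mycbp fell (-0.70 ± 0.16). Mlxip, which encodes MondoA, had 0.09 ± 0.20 at 24 h and 0.49 ± 0.20 at 48 h (edgeR adjusted p = 0.051), and it passed without OFF48 replicate 1 (0.04). Tfap4 had -0.39 ± 0.17 at 48 h (edgeR adjusted p = 0.0584) and passed without ON replicate 3 (0.0391). Of 10 tested targets of MLX with MondoA or ChREBP, 2 rose and 2 fell at 24 h, and 3 rose and 3 fell at 48 h, beside 35.3% and 47.4% of all genes called. Txnip, a well-known MondoA target, was higher by log2 1.42 ± 0.09 at 24 h, where Mlx was lowest, and by 0.97 ± 0.09 at 48 h. Txnip is also counted among the FOXO targets below, so these lists overlap. Fasn and Acaca, the fatty acid synthesis enzymes, fell at 24 h (log2 -0.91 and -0.98) and 48 h (-1.07 and -1.38), and Hk2 had -0.14 ± 0.11 at 24 h and fell by 0.70 at 48 h. The count of 2 that rose at 24 h was 1 without ON replicate 1, ON replicate 3, OFF24 replicate 1 or OFF24 replicate 2.

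The genes whose course over the 9 libraries was most like that of Myc were Snai3, Chchd10 and Cad, with root mean square differences of centred log2 CPM of 0.213, 0.214 and 0.216 among 7699 candidates, where the SD of Myc was 0.83. Cad, for example, went from 32.5 ± 5.62 CPM (SD, n = 3) to 10.2 ± 0.167 and 9.63 ± 1.52. For Mxi1, the antagonist with the highest mean level, they were Cdadc1 (0.065), Stat3 (0.072) and Scarb2 (0.077), beside an SD of 0.43. Stat3 went from 173 ± 11 to 249 ± 5.10 and 324 ± 13.4 CPM.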

How the data were processed

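Expression was measured by 3' mRNA sequencing (Lexogen QuantSeq) in 9 libraries, grouped by their titles. The deposited count table gives a whole number of reads for each gene symbol and library, which the authors had not normalised, as the values show. Another deposited table, named for voom and limma, holds log2 values and served only as an alternative. Per the submitters' processing notes, the tools included HISAT2 2.0.4 and Subread 1.5.0-p3 (featureCounts), R 3.6.1, limma 3.42.2, cutadapt 1.5, FastQC 0.11.2 and bcl2fastq 2.17.1.14, and the build was mm10. The notes assign no roles. For the annotation, the strand setting and multiply mapped reads, no detail is given in the sources used here.

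The test was edgeR's robust quasi-likelihood F test (edgeR 4.0.16, R 4.3.3) with TMM scaling, on the 10215 of 24756 rows that filterByExpr kept. The fit held all 9 libraries with 3 group means (6 residual degrees of freedom) and was tested on simulated data first. P-values were adjusted by Benjamini-Hochberg. A floor of 3 counts is 0.737 to 2.25 CPM. The alternatives were other scalings, no filter, DESeq2 1.42.0, limma 3.58.1 with voom or on the authors' log2 values, the compared groups alone, a replicate block and leaving out each library. Between replicates, chi-square per degree of freedom ran from 1.99 to 6.99, above counting noise. Reads carry no molecular identifiers in the table, so floors cover counting error only.

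The members and gene lists were chosen with earlier results of these data known. Named genes are all members, up to 4 tested genes per list with the smallest p at 48 h against ON, and the 3 genes (mean of at least 10 CPM) most like Myc and most like the antagonist with the highest level. Other genes named from a list were chosen after their values were seen, and some that the rule named are not reported here. Positions are from GENCODE M21 and promoters from RefSeq, both on GRCm38, the build also called mm10.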

Additional observations from a re-analysis of the deposited data

Results flagged for a closer look

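For 4 members the change against ON differed between 24 and 48 h, by edgeR's quasi-likelihood test of OFF48 against OFF24. The log2 fold change at 48 h exceeded that at 24 h by 0.52 for Mxd1, 0.48 for Mxd4, 0.30 for Mxi1 and 0.53 for Mlx (adjusted p of 0.011, 0.00329, 0.0433 and 0.00773). The Mxi1 call was lost under 11 of 18 alternatives, and the Mxd1 call without OFF24 replicate 1 (adjusted p = 0.0547). In each of these members all 3 OFF48 libraries were above all 3 OFF24 libraries. For the antagonists Mxd4 and Mxi1 this was a further move away from ON, and for Mlx a return towards ON. Mxd1 also moved away from ON, but its 24 h value against ON had not passed the threshold (edgeR adjusted p = 0.117).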

How the results depend on the processing

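Over the alternatives, the calls of Myc, Mxd4 and Mxi1 against ON at both times, Mxd1 at 48 h, Mlx at 24 h, and Mxd4 and Mlx between the times were kept in all 18. Myc ranged from -1.53 to -1.31 at 24 h and -2.07 to -1.48 at 48 h on the log2 scale. The number of members that rose between the times, 4, ranged from 2 to 4 when each library was left out. The labels do not say that replicate numbers pair the samples, and the data hint at it only in part: correlations of same-numbered deviations ran from -0.015 to 0.406, with 5 of 9 pairs over 0.1, and 4 of 9 libraries correlated best with their own number. A replicate block gave 2185 risen and 2015 fallen genes at 24 h, 2587 and 2602 at 48 h and 1314 and 1387 between the times, and of the members it changed the call of Max at 24 h alone (log2 -0.27, edgeR adjusted p = 0.0407). Of the other named genes, Rbbp7 (0.0343) and Tfdp2 (0.0447) at 24 h and Mlxip (0.0448) and Usf1 (0.0148) at 48 h also passed with the block.

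Values that changed sign had not passed the threshold, and the cause was not tested. At 24 h, Mnt was 0.0069 with upper quartile scaling and -0.22 to 0.058 with a library left out; in such omissions Tfeb ranged from -0.066 to 0.65, Mlxip from -0.0071 to 0.18 and Usf1 from -0.21 to 0.91. At 48 h, Max was -0.022 with no filter and ranged from -0.058 to 0.038, Mlx from -0.031 to 0.19 and Mga from -0.13 to 0.0060. Between the times, Usp36 was 0.0036 with RLE, 0.011 with library size scaling and 0.0053 with no filter, and ranged from -0.25 to 0.13 with omissions. Klf2 was 0.00071 with library size scaling (-0.031 to 0.038 with omissions) and Pcgf6 0.51 on the authors' log2 values (-0.78 to 0.63). Srebf2 ranged from -0.21 to 0.12, Usf1 from -0.026 to 1.10 and Cad from -0.22 to 0.080. Depth limits Mycn, which could not be tested, and the low members Myc and Mxd3 most.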

Other observations

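Of 9 tested E-box factors outside the network, 0 rose and 1 fell at 24 h and 1 rose and 1 fell at 48 h by edgeR at an adjusted p of 0.05, fewer than the 35.3% and 47.4% called over all genes. Srebf2, the regulator of cholesterol synthesis, fell at both times (log2 -0.90 and -0.94). Tfeb, a regulator of lysosome genes, rose by log2 0.78 ± 0.31 at 48 h (edgeR adjusted p = 0.0434), a call lost with DESeq2, with the compared groups alone, and without ON replicate 1 or any OFF24 or OFF48 library. Usf1 had 0.89 ± 0.38 at 48 h (edgeR adjusted p = 0.0654, or 0.0245 and 0.0357 without OFF24 replicate 2 or 3, 0.023 with the compared groups alone and 0.0303 with no filter). Of 13 tested FOXO factors and targets, 8 rose and 1 fell at 24 h (median log2 0.68). At 48 h, 6 rose and 1 fell (median log2 0.39). Over all tested genes, 17.8% rose and 17.4% fell at 24 h, and 23.4% rose and 23.9% fell at 48 h. Ypel3 rose by 1.63 ± 0.12 and 1.41 ± 0.12, while Klf2, also a FOXO target, fell (log2 -1.68 and -1.70). Bcl6, a repressor, had 2 counts over the ON libraries, 17 over OFF24 and 28 over OFF48.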
